A study of Mus musculus with 2 samples.

Results

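Cycling regulatory T cells are the subset of Foxp3-expressing CD4 T cells that carried messages of dividing cells, here within tumours of C57BL/6 mice. A cell was a member if it held at least 1 UMI (a unique molecular identifier, which stands for 1 captured message) of Foxp3, of Cd4, of Mki67, of Top2a and of any of Cd3d, Cd3e and Cd3g, with at most 2 UMIs of Cd8a and Cd8b1 together. That rule chose 303 of 21021 kept cells. The library labelled WT held 148 of them among 9865 cells, and the library labelled Dapl1-KO held 155 among 11156. Both libraries came from tumour-infiltrating cells sorted for CD45, which marks blood-derived cells, and CD90.2, which marks T cells and some innate lymphocytes, and were sequenced with 10x Genomics 3′ chemistry. The groups differ by label in genotype only, wild type against deficiency for Dapl1, a gene the series sets out to study in tumour T cells. The tumour, the treatment, the age and the number of animals behind each library are not given in the sources used here. With 1 library per label there was no replicate and no test, so every interval below is a 95% interval for counting error alone.

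Regulatory T cells restrain other lymphocytes and depend on the transcription factor FOXP3, which is encoded on chromosome X (GRCm38, 7573644 to 7595245). In tumours they are known for high levels of CTLA4, of the interleukin 2 receptor and of tumour necrosis factor receptors such as OX40 (Tnfrsf4) and GITR (Tnfrsf18), and for dividing in response to antigen and interleukin 2. A dividing cell first copies its DNA with replication proteins such as the MCM helicase and PCNA, and then separates its chromosomes with cyclin-dependent kinase 1, aurora kinases and kinesins. Genes of the first group are largely switched on by E2F factors, and many of the second group carry CCAAT boxes and a short element called CHR in their promoters.

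Promoters of 3 genes that were high in the members are shown because they hold these letters. Each is the 250 bases before the RefSeq transcription start on build GRCm38.p6, read along the gene from 5′ to 3′, with the capitals marking every match on either strand to a CCAAT box (CCAAT), a CHR (TTTGAA) or an E2F site (TTTCGCGC, TTTGGCGC or TTTCCCGC). Hmmr encodes a spindle protein and its window lies at chr11:40733438-40733687 on the minus strand, with 5 CCAAT matches. Cdk1, the kinase of mitotic entry, has its window at chr10:69352913-69353162 on the minus strand, with 2 CHR, 3 CCAAT and 1 E2F match. Mcm5 encodes a subunit of the replicative helicase and its window lies at chr8:75109259-75109508 on the plus strand, with 2 CCAAT matches and 2 overlapping E2F matches.
Hmmr: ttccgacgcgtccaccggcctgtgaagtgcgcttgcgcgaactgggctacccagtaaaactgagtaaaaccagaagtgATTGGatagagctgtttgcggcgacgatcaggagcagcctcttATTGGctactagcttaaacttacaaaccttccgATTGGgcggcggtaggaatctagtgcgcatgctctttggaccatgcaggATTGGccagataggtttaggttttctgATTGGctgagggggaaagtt
Cdk1: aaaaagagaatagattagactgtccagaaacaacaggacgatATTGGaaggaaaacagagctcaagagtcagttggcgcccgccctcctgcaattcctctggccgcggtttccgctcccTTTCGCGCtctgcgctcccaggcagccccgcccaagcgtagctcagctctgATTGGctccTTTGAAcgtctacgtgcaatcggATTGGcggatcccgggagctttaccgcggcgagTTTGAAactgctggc
Mcm5: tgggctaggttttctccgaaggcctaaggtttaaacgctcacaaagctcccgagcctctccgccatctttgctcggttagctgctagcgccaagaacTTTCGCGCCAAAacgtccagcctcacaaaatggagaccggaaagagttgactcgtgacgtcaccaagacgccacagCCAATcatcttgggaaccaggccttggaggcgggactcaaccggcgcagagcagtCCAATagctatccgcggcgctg
Among the 32851 windows counted, which left out 1 chromosome, 33.8% held a CCAAT box, 16.0% a CHR and 1.53% an E2F site. The 52 windows of the G2 and mitosis list (48 of its 58 genes matched) held a CCAAT box in 80.8%, a CHR in 40.4% and an E2F site in 3.85%. In the 51 windows of the replication and G1/S list (43 of 53 genes matched) these shares were 60.8%, 15.7% and 21.6%. A match describes letters in the window and is no measure of binding.

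Some properties of the libraries bear on every result. The libraries held 154408101 and 206322042 UMIs, in the order WT and Dapl1-KO, which is kept for paired values throughout. They shared 13132 barcodes, and only a copy with at least 2 times the UMIs of the other was kept, while 21 barcodes had no such copy. All 148 members labelled WT and 146 of the 155 labelled Dapl1-KO had a barcode that occurred in both libraries. The labels also coincide with sex-linked messages: 87.8% of the members labelled WT had UMIs of Xist or Tsix and none of Y-linked genes, against 0.645% of those labelled Dapl1-KO, of which 83.2% had only Y-linked UMIs. Genotype and sex therefore cannot be told apart. The targeted gene gave no check in the members, which held 6 and 3 Dapl1 UMIs in all. In cycling CD8 T cells Dapl1 stood at 10.9 and 12.4 CPM (a gene's UMIs per 1000000 UMIs of the cells summed). It stood at 78.9 and 68.9 CPM in CD8 T cells with neither Mki67 nor Top2a. In CD4 T cells without Foxp3 it stood at 44.8 and 48.9 CPM. The message was thus not lost under the label Dapl1-KO in these cells, and the reason was not tested.

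The members made up 1.5% (1.27 to 1.76, exact Clopper-Pearson interval) and 1.39% (1.18 to 1.62) of kept cells. The difference was -0.111 percentage points (Newcombe interval -0.439 to 0.212), which holds 0. Of the alternatives, 2 gave intervals without 0, in opposite directions: -0.385 points (-0.768 to -0.0281) with every cell thinned to 8000 UMIs before the gate, and 0.170 points (0.0189 to 0.323) with all shared barcodes left out, which leaves 0 members labelled WT and 9 labelled Dapl1-KO. Cells that met the same lineage criteria, with or without Mki67 and Top2a, numbered 595 and 657. Of these gated regulatory T cells, 24.9% (21.4 to 28.6) and 23.6% (20.4 to 27.0) were cycling, a difference of -1.28 points (-6.04 to 3.46). A further 292 and 331 had neither Mki67 nor Top2a and are called non-cycling here, and 155 and 171 had 1 of the 2 messages and are called intermediate.

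The cycling share stood beside 23.4% and 31.4% in gated CD8 T cells and 6.44% and 6.09% in conventional CD4 T cells. The latter had Cd4 and a Cd3 gene but no Foxp3, and 0 UMIs of Cd8a and Cd8b1, where regulatory T cells could hold up to 2. This gate held 39 and 36 cycling cells, against 52 and 51 cycling cells without Foxp3 when up to 2 CD8 UMIs were allowed. Conventional CD4 shares under that looser limit are not given here. Depth per cell differed between the cells with and without these messages: the median was 28572 and 21678 UMIs in the members against 7092 and 7167 in non-cycling regulatory T cells. When the lineage was read from all UMIs and the cycle genes after thinning each cell to 8000 UMIs, 26.4% (22.0 to 31.3) and 27.3% (22.9 to 32.0) of regulatory T cells were cycling. The same measure gave 18.4% (17.0 to 19.9) and 26.8% (25.4 to 28.2) of CD8 T cells and 16.1% (10.6 to 23.0) and 16.4% (10.8 to 23.5) of conventional CD4 T cells. That thinning left out 232 and 265 regulatory T cells as too shallow. At 3000 UMIs, where 19 and 15 were left out, the regulatory shares were 9.55% and 10.9%, the CD8 shares 6.79% and 10.9% and the conventional CD4 shares 2.91% and 3.49%. When lineage and cycle genes were both read after thinning to 3000 UMIs, 4.24% (1.72 to 8.55) and 4.42% (2.14 to 7.99) of regulatory T cells were cycling, against 3.96% (2.40 to 6.11) and 5.25% (3.49 to 7.55) of conventional CD4 T cells. At 8000 UMIs that reading gave 23.4% and 18.2% of regulatory and 19.8% and 21.1% of conventional CD4 T cells. The regulatory share was thus above the conventional CD4 share without overlap of intervals only without thinning and at 3000 UMIs with lineage read from all UMIs. In the other 3 readings the intervals overlapped, and in the library labelled Dapl1-KO the order turned in 2 of them. Those 2 readings took lineage after thinning, where a regulatory T cell that lost its Foxp3 UMIs could pass the conventional CD4 gate. So could a Cd4 cell without Foxp3 that lost its CD8 UMIs. At 3000 UMIs, 39.2% and 39.0% of the members still had a Foxp3 UMI. Cycling conventional CD4 T cells at 8000 UMIs numbered 24 and 24 with lineage read from all UMIs, and 36 and 36 after thinning. The part of either kind of moved cell was not tested.

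**Figure D1:**
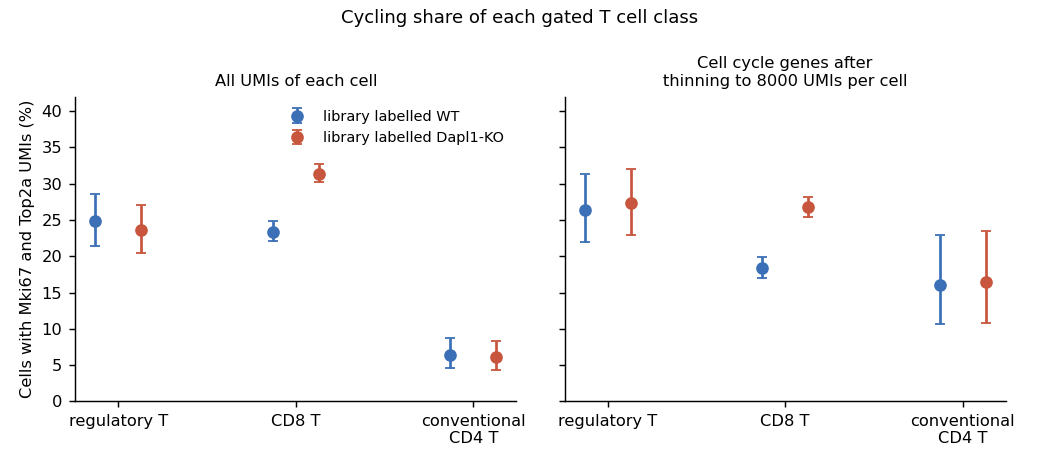
Share of cells with UMIs of both Mki67 and Top2a (y axis, percent) in gated regulatory, CD8 and conventional CD4 T cells (x axis), by library, with exact 95% intervals for counting error. The left panel uses all UMIs of a cell and the right panel the cycle genes after thinning to 8000 UMIs; the regulatory shares of the libraries overlap in both panels.

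The values that chose the members were low for lineage genes and higher for cycle genes. Foxp3 ran from 1 to 18 UMIs per member labelled WT (median 3) and from 1 to 12 in those labelled Dapl1-KO (median 4), and 33 and 27 members had a single Foxp3 UMI. Members with 1 Foxp3 UMI had 1060 and 1314 CPM of Ctla4, while the 52 and 51 cells that met every criterion except Foxp3 had 713 and 765 CPM. At the CD8 limit, 21 and 10 members had 2 CD8 UMIs and 107 and 136 CPM of Foxp3, and the 11 and 9 cells with 3 such UMIs, just outside, had 230 and 159 CPM. In all, 191 and 193 otherwise qualifying cells were left out for more than 2 CD8 UMIs. Their Foxp3 level was 72.5 and 78.6 CPM, against 131 and 167 CPM in the members. Of cycling CD8 T cells without Cd4, 8.37% (6.69 to 10.3) and 5.64% (4.60 to 6.83) had a Foxp3 UMI at median depths of 34519 and 29879 UMIs, a level of 5.38 and 3.98 CPM.

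Genes outside the rule were those of regulatory T cells. Tnfrsf4, which encodes the costimulatory receptor OX40, stood at 1054 and 1395 CPM in the members, 1472 and 1826 CPM in non-cycling regulatory T cells and 334 and 338 CPM in cycling CD8 T cells. Ctla4, the inhibitory receptor that removes CD80 and CD86 from other cells, stood at 998 and 1189 CPM against 232 and 312 CPM in cycling CD8 T cells. Ikzf2 (Helios, a regulatory T cell transcription factor) was at 579 and 729 CPM against 161 and 207 CPM. Il2ra, the high-affinity chain of the interleukin 2 receptor, was at 127 and 166 CPM against 45.5 and 42.4 CPM. In both libraries the members were thus above cycling CD8 T cells for each of these genes and below non-cycling regulatory T cells for Tnfrsf4, Ctla4 and Ikzf2, though not for Il2ra.

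Markers of other cells were also present. Of 10 monocyte and macrophage markers, 10 and 9 had UMIs in the members, with summed levels of 582 and 672 CPM against 755 and 580 CPM in non-cycling regulatory T cells and 380 and 492 CPM in cycling CD8 T cells; Csf1r was at 0 in the members labelled Dapl1-KO. Cst3 and Ctss, picked out after their values were seen, made up 323 and 654 CPM of these sums in the members. Of this pair only Cst3 was higher under the label Dapl1-KO, at 195 and 563 CPM, while Ctss was lower, at 128 and 90.7 CPM. The other 8 markers summed to 259 and 18.6 CPM. All 10 CD8 markers had UMIs, at 1125 and 1851 CPM against 10189 and 10314 CPM in cycling CD8 T cells. The 6 B cell markers summed to 98.8 and 116 CPM, with UMIs in 99 and 102 members, nearly all from the immunoglobulin genes Ighm (49.4 and 77.3 CPM) and Igkc (41.9 and 32.5 CPM), and Ms4a1 was at 0 in the members of both libraries. Melanocytic tumour cell markers reached 552 CPM in the members labelled WT and 8.39 CPM in those labelled Dapl1-KO, and 99.3% of the 2489 UMIs in the former came from 1 cell. That cell held 183608 UMIs, 4.07% of all UMIs of the members labelled WT, among them 2 of Foxp3 and 286 of macrophage markers.

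The first comparison set the members against non-cycling regulatory T cells within each library. Its cells were chosen by Mki67 and Top2a, so its cell cycle values describe the choice and are given without further reading. A gene was counted as higher or lower when its CPM differed at least 1.5-fold in the same direction in both libraries, among genes at 20 CPM or more in either set of cells, with the 9 genes of the rule left out. Of 4864 genes measured, 776 (16.0%) were higher and 590 (12.1%) were lower in the members, and 7 were past the limit in opposite directions.

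Messages of chromosome segregation had the highest ratios. Aurkb, the aurora kinase of the chromosomal passenger complex (chromosome 11, 69045647 to 69051664), stood at 66.3 and 59.2 CPM in the members and at 1.23 and 0.719 CPM in non-cycling regulatory T cells, log2 ratios of 5.75 and 6.36. Hmmr, whose promoter is printed above, stood at 48.5 and 59.8 CPM against 0.411 and 0.360 CPM. Cdk1 was at 113 and 125 CPM against 2.47 and 5.39 CPM, and Ccna2, cyclin A2, at 97.5 and 102 CPM against 2.47 and 2.88 CPM. The other leading genes were Birc5 and Cdca8 (partners of Aurkb in the passenger complex), Spc24 (a kinetochore protein), Nusap1, Tpx2 and Kif15 (spindle proteins), Ccnb1 (cyclin B1), Pclaf (a PCNA partner) and the histone gene Hist1h2ab, whose reads may be shared with near-identical histone copies. Of 47 measured genes of the G2 and mitosis list, 44 were higher and 0 lower, with a median log2 ratio of 3.51 beside -0.04 over all genes measured.

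Replication genes followed with smaller ratios. Mcm5 was at 102 and 107 CPM in the members against 12.8 and 15.8 CPM, and Pcna, the sliding clamp, at 317 and 343 CPM against 71.2 and 89.2 CPM. Cdc45, which completes the active helicase, was at 34.1 and 39.3 CPM against 2.06 and 1.44 CPM. On the replication and G1/S list 39 of 40 measured genes were higher and 0 lower (median 2.53). Regulators of G1 were split, with 5 higher and 8 lower of 24. Among the former were Cdk4, at 125 and 104 CPM against 32.1 and 39.6 CPM, and Rbl1, a pocket protein; among the latter was Mxd4, a MYC antagonist, at 41.7 and 38.5 CPM against 127 and 133 CPM. Myb, a transcription factor of proliferating lymphocytes, was higher at 47.4 and 55.3 CPM against 15.2 and 10.1 CPM.

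**Figure D2:**
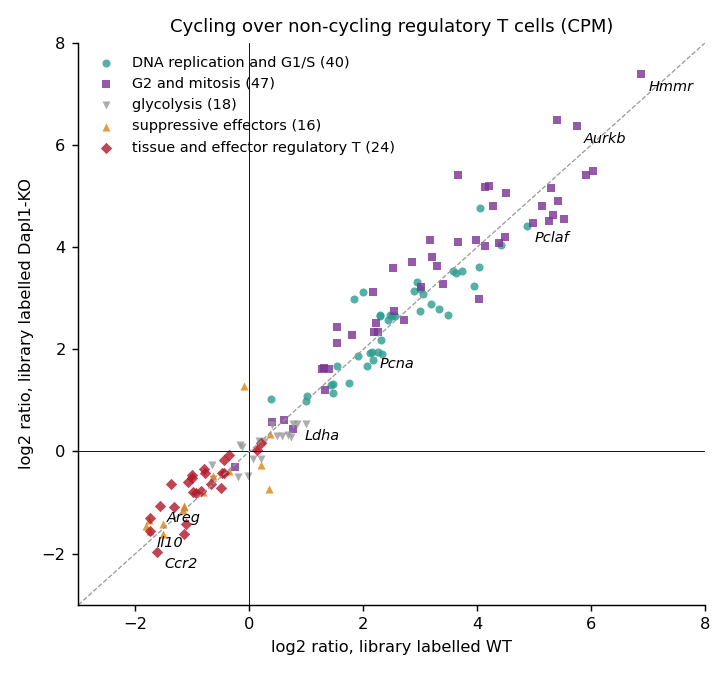
Log2 ratio of CPM in cycling over non-cycling regulatory T cells in the library labelled WT (x axis) and labelled Dapl1-KO (y axis); each point is 1 measured gene of a list, with the number of genes in the key and a dashed line of equal ratios. The cycle lists lie at the upper right, with medians of 2.53 and 3.51, and most suppressive effector and tissue genes at the lower left.

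Regulatory T cell genes took a smaller part of the members' messages. The counts below fell by more than 1.5-fold when cells were thinned to equal depth before the gate, as given later. Of 21 measured identity genes 8 were lower and 0 higher (median -0.56), of 16 suppressive effectors 9 were lower (median -0.96), and of 24 genes of effector and tissue regulatory T cells 13 were lower (median -0.79), again with 0 higher. Il10, the gene of the suppressive cytokine interleukin 10 (chromosome 1, 131019845 to 131024974), stood at 42.8 and 26.2 CPM in the members and 144 and 76.6 CPM in non-cycling cells, log2 ratios of -1.75 and -1.55. Lrrc32 (GARP), which presents latent TGF-β, was at 27.9 and 27.8 CPM against 79.4 and 73.7 CPM. Areg, the tissue repair factor amphiregulin, was at 140 and 371 CPM against 416 and 779 CPM. Fgl2, a secreted suppressor, was at 50.1 and 56.9 CPM against 144 and 174 CPM. Nt5e (CD73), which makes adenosine, was at 29.0 and 24.9 CPM against 102 and 68.7 CPM, and Izumo1r (folate receptor 4) at 94.6 and 106 CPM against 290 and 280 CPM.

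Receptors and homing genes were lower as well. Of 11 TNF receptor and costimulatory genes 9 were lower and 0 higher (median -0.83), and of 12 inhibitory receptors 8 were lower (median -0.86). Icos was at 352 and 309 CPM against 674 and 572 CPM, Tnfrsf9 (4-1BB) at 444 and 551 CPM against 774 and 937 CPM, and Lag3 at 76.9 and 102 CPM against 171 and 214 CPM. Tnfrsf4, Ctla4, Ikzf2 and Pdcd1 were within the 1.5-fold limit, with mean log2 ratios of -0.43, -0.37, -0.53 and -0.46. Ccr2, a receptor for inflammatory chemokines, had log2 ratios of -1.62 and -1.96, and Ccr8, a receptor of tumour regulatory T cells, -0.99 and -0.80. Of the interleukin 2 and cytokine signalling list 11 of 22 were lower, led in size by Il7r, the interleukin 7 receptor (111 and 77.6 CPM against 399 and 281 CPM). Il2ra was not past the limit, with log2 ratios of 0.34 and 0.07.

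The lowest ratio belonged to Neurl3, a ubiquitin ligase gene, at 23.5 and 25.4 CPM against 153 and 87.7 CPM. Ccl5, the chemokine RANTES, was at 326 and 774 CPM against 2157 and 2367 CPM. Txnip and Tsc22d3 (GILZ), which respond to glucose and to glucocorticoids, had mean log2 ratios of -1.74 and -1.69, and Matk, Igflr1 and Ypel3 of -2.22, -1.93 and -1.70. Of 7 helper and inflammatory cytokine genes 4 were lower and 0 higher. Of 10 genes of the type I interferon list 3 were lower, and of 11 genes of resting and central T cells 3 were lower, among them Klf2 at 37.9 and 37.0 CPM against 109 and 83.1 CPM.

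Metabolic and chaperone genes moved less. None of 18 glycolysis genes was past the limit in both libraries (median 0.20), and Ldha was at 1505 and 1297 CPM against 839 and 889 CPM. On the cholesterol synthesis list 2 of 10 were higher, Fdps and Idi1, with mean log2 ratios of 1.26 and 0.99. Of 12 heat shock genes 3 were higher, the HSP90 genes Hsp90aa1 and Hsp90ab1 and the mitochondrial chaperonin Hspd1, with mean log2 ratios of 0.85, 0.86 and 1.06. Of 20 antigen receptor response genes 1 was higher, Myb, and 4 were lower, and of 13 S100 and annexin genes 3 were lower.

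The scale decides how the lower values read. A member held 3.66-fold and 2.93-fold more UMIs than a non-cycling regulatory T cell on average, so of the 590 genes lower in CPM 581 and 557 had more UMIs per cell in the members. Fewer genes were lower at equal depth per cell. Thinning before the gate also changed which cells were members and left fewer UMIs to count, and these effects were not told apart. Before thinning, 145 and 146 members held at least 8000 UMIs. With every cell thinned to 8000 UMIs before the gate, which leaves 55 and 47 members, 576 genes were higher and 138 lower, among them 387 of the 776 and 76 of the 590, while 481 of the 590 kept a mean ratio below 0. On the thinned counts 1 of 20 identity genes, 4 of 16 suppressive effectors, 3 of 24 effector and tissue genes, 1 of 11 TNF receptor genes, 0 of 12 inhibitory receptors and 2 of 22 cytokine signalling genes were lower, with 0 higher in each, and 38 of 39 G1/S and 46 of 48 G2 and mitosis genes were higher. Nt5e, Ccr8 and Il7r were still lower, with mean log2 ratios of -1.06, -1.10 and -0.92, while Il10, Lrrc32 and Areg, at -0.26, -0.49 and -0.91, were not past the limit in both libraries. Hsp90aa1 was still higher at 0.81, while Hsp90ab1, Hspd1, Fdps and Idi1, at 0.44, 0.48, 0.46 and 0.38, were not past the limit. With only cells of at least 8000 UMIs, an alternative added after the data had been seen that leaves the median depth at 28696 and 22915 UMIs in the members against 10981 and 11082, 696 genes were higher and 337 lower, among them 637 of the 776 and 313 of the 590. On that subset Il10, Lrrc32, Areg and Ccr2 remained past the limit, with mean log2 ratios of -1.09, -1.32, -1.16 and -1.35, while Tnfrsf9 and Gzmb, at -0.54 and -0.45, did not. Hsp90aa1, Hsp90ab1, Hspd1, Fdps and Idi1 also remained higher there. Intermediate cells lay between the 2 ends for 90.5% and 89.3% of the higher genes and 81.9% and 77.3% of the lower genes. These genes were chosen for a gap between the same ends, so the shares partly describe the choice. The share over all genes is not given here. In intermediate cells Pcna was at 128 and 135 CPM. Il10 was at 83.9 and 82.7 CPM, the latter above the 76.6 CPM of non-cycling cells labelled Dapl1-KO.

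**Figure D3:**
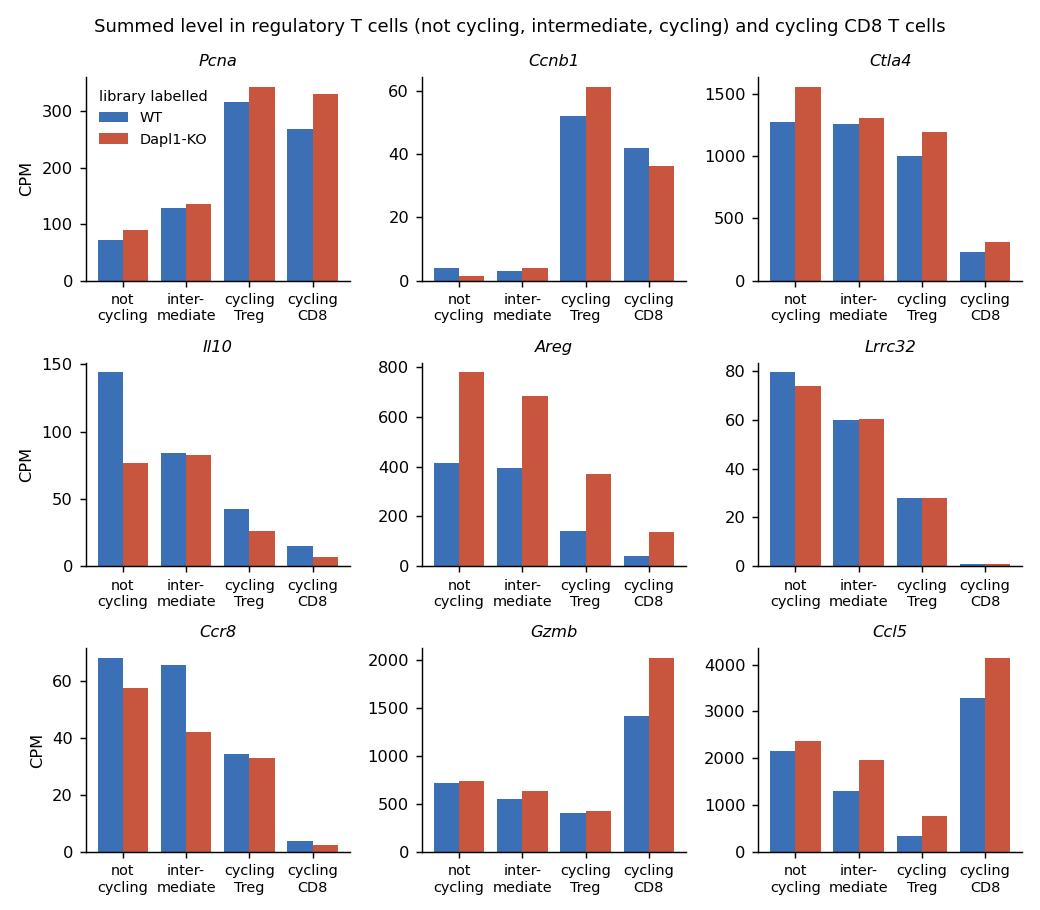
Summed level (y axis, CPM of the gate's UMIs, from 0) of 9 genes in non-cycling, intermediate and cycling regulatory T cells and in cycling CD8 T cells, by library. Pcna and Ccnb1 are high in both cycling sets, Il10, Areg, Lrrc32 and Ccr8 are lower in cycling than in non-cycling regulatory T cells, and Gzmb and Ccl5 are highest in cycling CD8 T cells.

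The members differed among themselves in the balance of the cycle lists. UMIs of the G1/S list made up 0.0417% to 1.09% (median 0.440%) of the UMIs of members labelled WT and 0.0289% to 1.03% (median 0.403%) of those of members labelled Dapl1-KO. Those of the G2 and mitosis list made up 0.0968% to 2.19% (median 0.732%) and 0.0723% to 2.96% (median 0.914%). More G1/S than G2 and mitosis UMIs were found in 26.4% (19.5 to 34.2) and 19.4% (13.5 to 26.5) of the members, and in 26.8% (23.9 to 29.9) and 29.6% (27.4 to 31.8) of cycling CD8 T cells. This split is a range without a gap, since 53 and 41 members lay near equality.

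Genes outside the cycle lists were read in 3 parts of the members, from the richest in G1/S over the middle to the richest in G2 and mitosis messages. Klrg1, a receptor of mature effector cells, stood at 91.3, 62.0 and 133 CPM under the label WT and at 111, 72.3 and 152 CPM under Dapl1-KO, lowest in the middle of both. Gzmb was at 430, 281 and 500 CPM and at 337, 348 and 625 CPM. Il2ra was at 153, 103 and 120 CPM and at 163, 191 and 139 CPM, and Ctla4 at 1000, 1016 and 977 CPM and at 983, 1280 and 1311 CPM. For none of these 4 genes did both libraries show a steady order in the same direction. By contrast Ikzf2, at 529, 589 and 627 CPM and at 654, 719 and 826 CPM, rose over the parts in both libraries. So did Tnfrsf18, at 474, 603 and 653 CPM and at 604, 766 and 811 CPM, and neither rise was tested. Foxp3, which chose the members, was at 104, 121 and 174 CPM and at 139, 173 and 192 CPM.

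**Figure D4:**
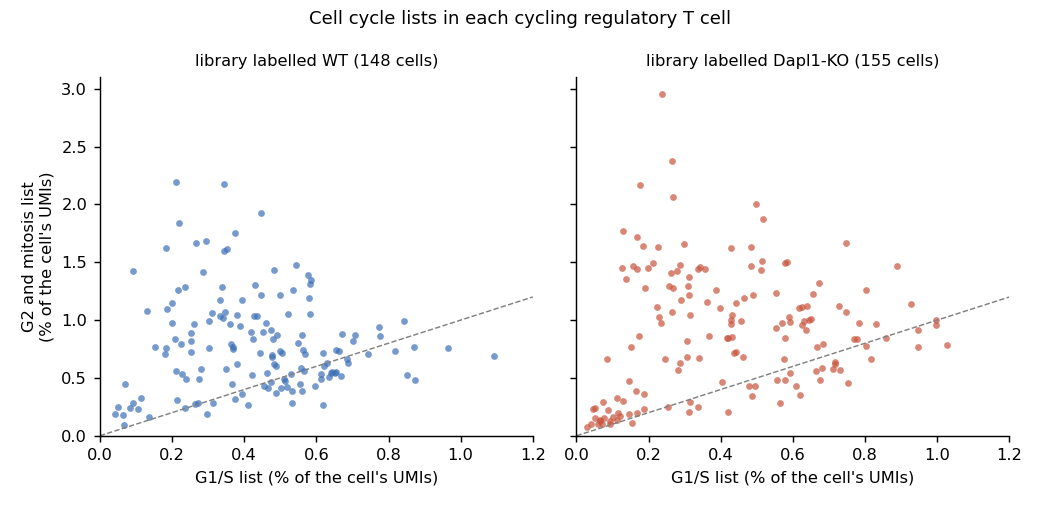
Share of each member's UMIs from the G1/S list (x axis, percent) and from the G2 and mitosis list (y axis, percent), 1 point per cell, with a dashed line of equal shares, for 148 cells labelled WT (left) and 155 labelled Dapl1-KO (right). Points spread from below the line to values near 3% on the y axis without separate clusters.

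The second comparison set the members against cycling CD8 T cells, 876 and 1641 cells with at least 3 UMIs of Cd8a and Cd8b1 and neither Cd4 nor Foxp3. Both sets passed the same Mki67 and Top2a criteria. Of 4698 genes measured, 330 (7.02%) were higher and 188 (4.0%) lower in the members in both libraries, and 19 were past the limit in opposite directions. Cycle genes differed little: 0 of 41 G1/S genes and 1 of 48 G2 and mitosis genes, Lmnb1 (lamin B1), were past the limit, with medians of 0.19 and 0.27 beside 0.04 over all genes. Mcm5 was at 102 and 107 CPM against 83.5 and 105 CPM, and Ccnb1 at 52.1 and 61.3 CPM against 42.1 and 36.2 CPM.

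Identity genes set the members apart in the upward direction. Of 20 measured 12 were higher and 1 lower, with a median log2 ratio of 1.45; the lower one was Nrp1 (neuropilin 1), at 13.3 and 13.9 CPM against 30.0 and 23.9 CPM. Since Foxp3 was part of both gates, these genes describe the lineage chosen. Lrrc32 stood at 27.9 and 27.8 CPM against 1.02 and 0.741 CPM, and Itgb8, the integrin chain that frees active TGF-β, at 22.2 and 22.8 CPM against 0.844 and 1.18 CPM. Ebi3, a chain of interleukin 35, was at 29.7 and 28.6 CPM against 2.68 and 1.32 CPM. Ramp1, which makes a receptor for the neuropeptide CGRP, had the highest ratios among genes at 50 CPM or more, at 130 and 168 CPM against 8.02 and 5.51 CPM. Cd81, a tetraspanin, and Izumo1r followed with mean log2 ratios of 3.67 and 3.57, then Timp2, Itgb7, Klrg1, Maf, Ass1, Zfp36l1, Rgs10, Slc15a3 and Ccr2 with 2.54 to 3.43.

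Other lists were divided. Of 22 effector and tissue genes 11 were higher and 2 lower, with Ccr8 at 34.1 and 32.8 CPM against 3.62 and 2.35 CPM and Cxcr3 at 31.7 and 45.9 CPM against 4.70 and 7.04 CPM. Of 12 genes of resting and central T cells 5 were higher and 1 lower, with Il7r higher and Bcl2 lower at 16.2 and 8.65 CPM against 32.7 and 25.0 CPM. Type I interferon response genes were higher for 5 of 8, with Ifi27l2a at 769 and 1190 CPM against 152 and 232 CPM. Among 10 inhibitory receptors 5 were lower and 2 higher. Havcr2 (TIM-3), Lag3 and Pdcd1 (PD-1) were lower with mean log2 ratios of -1.11, -1.08 and -0.93, and Ctla4 and Cd5 higher with 2.02 and 1.53. Costimulatory genes were higher for 5 of 12 and lower for 2, and cytokine signalling genes for 5 and 5 of 22.

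Cytotoxic messages were lowest in the members. Gzmf, a granzyme of the cluster expressed late in CD8 T cell activation, was at 14.6 and 9.18 CPM against 2524 and 1231 CPM, and its neighbours Gzmg, Gzme and Gzmd had mean log2 ratios of -7.45, -6.61 and -6.24; reads of these related genes may be shared. Gzmb, which regulatory T cells also use, differed less, at 405 and 428 CPM against 1420 and 2022 CPM. Prf1 (perforin) was at 32.6 and 29.1 CPM against 274 and 463 CPM. Of 7 helper and inflammatory cytokine genes 5 were lower, with Ifng at 19.3 and 23.1 CPM against 201 and 319 CPM. Suppressive effectors, a list that holds granzymes, were 6 higher and 5 lower of 18. The natural killer receptors Klrd1, Klrk1 and Klrc2 had mean log2 ratios of -4.23, -3.93 and -3.89, Gzmk -4.87, and Gldc, Serpine2, Serpinb9b and Nrgn -4.80, -4.71, -4.44 and -3.90.

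The level of CD8 genes in the members, as a part of their level in cycling CD8 T cells, differed among genes chosen with their values in view. Gzmf stood at 0.579% and 0.745%, Gzmk at 2.75% and 4.24%, Ccl5 at 9.93% and 18.7% and Nkg7, a granule protein, at 29.2% and 47.9%. Gzmc stood at 38.5% and 1.86%. Non-cycling CD8 T cells, which were not the reference, held more Ccl5, at 8272 and 11922 CPM. The reason for these differences was not tested. Glycolysis genes were higher for 4 of 18 and lower for 1, with Slc16a3, a lactate exporter, at 127 and 112 CPM against 40.2 and 56.3 CPM. None of 11 cholesterol synthesis genes was past the limit, 1 of 12 heat shock genes, Dnajb4, was lower, and of 13 S100 and annexin genes 2 were higher and 1 lower.

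The third comparison set the members labelled Dapl1-KO against those labelled WT, which is the contrast the design names. Of 4901 genes that reached 20 CPM under either label, 106 (2.16%) were at least 1.5-fold higher and 183 (3.73%) lower in the members labelled Dapl1-KO. Without 3 and 4 members in which macrophage, dendritic and melanocytic markers took over 0.5% of UMIs, a step added after the data had been seen, 111 were higher and 123 lower. The cycle and identity lists held 0 to 2 genes in each direction, too few to set apart from the shares over all genes. Of 43 G1/S genes 0 were higher and 2 lower (median 0.06), of 48 G2 and mitosis genes 2 higher and 0 lower (0.27), and of 20 identity genes 0 higher and 1 lower, Rgs1 (0.12), beside a median of -0.01 over all genes. Foxp3, a gene of the rule, was at 131 and 167 CPM at mean depths that differ between the libraries. Ctla4 was at 998 and 1189 CPM (log2 ratio 0.25, 0.19 to 0.31) and Ccr8 at 34.1 and 32.8 CPM (-0.06, -0.41 to 0.29).

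Messages spread over many members were higher for a few effector genes. Areg stood at 140 CPM in the members labelled WT and 371 CPM in those labelled Dapl1-KO, a log2 ratio of 1.41 (1.27 to 1.54). Its UMIs were in 49.3% and 61.3% of members, against 13.2% and 27.0% of cycling CD8 T cells, and the log2 ratio was 0.91 in non-cycling regulatory T cells and 1.73 in cycling CD8 T cells. Ccl5 was at 326 and 774 CPM (2.37-fold, log2 interval 1.16 to 1.34) and Nkg7 at 434 and 1009 CPM (2.32-fold, log2 interval 1.14 to 1.30). In non-cycling regulatory T cells their log2 ratios were 0.13 and 0.79. Both genes belong to the CD8 marker list, which was split here with its values in view. Its other 8 genes summed to 365 CPM in the members labelled WT and 67.9 CPM in those labelled Dapl1-KO. Most of that gap was Gzmc, at 294 and 15.2 CPM. Gzmd, Gzme, Gzmf and Cd8b1 were also lower. Gzmk (3.32 and 5.51 CPM), Cd8a (2.66 and 4.19 CPM) and Klrd1 (16.6 and 16.8 CPM) were not. The rule itself limits Cd8a and Cd8b1 in the members. Cxcr6, a chemokine receptor of tissue T cells, was at 13.7 and 38.0 CPM. Hivep1, Glipr1, Nabp1, Hmgn3 and Rgs16 had log2 ratios of 1.05, 0.91, 0.88, 0.78 and 0.77. Hivep1 was not higher under the label Dapl1-KO in non-cycling regulatory T cells (53.9 and 51.1 CPM) or cycling CD8 T cells (29.7 and 26.2 CPM). In non-cycling regulatory T cells Glipr1 (98.3 and 180 CPM), Nabp1 (65.4 and 118 CPM) and Hmgn3 (16.0 and 27.3 CPM) were higher.

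Interferon-related genes were higher in the same direction. On the type I interferon list, 5 of 9 measured genes were higher and 1 was lower, with a median log2 ratio of 0.60. Isg15, a ubiquitin-like protein induced by interferon, was at 31.0 and 48.5 CPM (0.64, 0.32 to 0.97) and the GTPase gene Ifi47 at 29.9 and 52.2 CPM (0.80, 0.48 to 1.13). Ifitm3 was lower, at 84.0 and 33.8 CPM.

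Single cells held a large part of the UMIs of 3 genes with high ratios. Il17a, the gene of interleukin 17A, had 74 and 452 UMIs, and 344 of the latter came from 1 cell. Ifitm1 had 75 and 226 UMIs, 134 of them from 1 cell labelled Dapl1-KO, and was found in 6.08% and 7.74% of members. Cst3, a cystatin of macrophages and other cells, had 438 of 2148 UMIs labelled Dapl1-KO in 1 cell, and its log2 ratio went from 1.53 to 1.26, still past the limit, when the cell with most of its UMIs was left out of each library.

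The lowest ratios were mostly of genes of other cells and turned on single cells labelled WT. Dct, Mlana, Pmel and Tyrp1, which act in melanin formation, had 1198, 494, 318 and 401 UMIs in the members labelled WT, of which 1194, 491, 315 and 400 lay in 1 cell. Without the cell with most UMIs in each library, their log2 ratios went from -6.28, -6.38, -5.49 and -5.60 to 1.77, 0.20, 0.93 and 2.77. Ptgds went from -7.13 to -1.81, Gpnmb from -4.95 to -1.45 and the granzyme gene Gzmc from -4.27 to -1.73. Macrophage genes were less tied to 1 cell, with Lyz2 at -4.35 and -3.95, Spp1 at -4.41 and -4.05, Ccl2 at -6.55 and -6.18, Cd14 at -5.57 and -5.29 and Fn1 at -6.73 and -7.11. They occurred in 5.41% to 14.9% of the members labelled WT.

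Lower messages spread over many members included heat shock and sterol genes. Hspa1a and Hspa1b, near-identical inducible HSP70 genes whose reads may be shared, stood at 332 and 98.0 CPM (log2 ratio -1.76, -1.93 to -1.60) and at 230 and 57.7 CPM (-2.00, -2.22 to -1.79). They were found in 48.0% and 26.5% and in 45.3% and 23.2% of members, and were lower by 1.55 and 2.18 on the log2 scale in non-cycling regulatory T cells. The direction turned when only cells with Y-linked and no Xist or Tsix UMIs were used, which leaves 9 members labelled WT, with log2 ratios of 3.81 and 4.01. Of 12 heat shock genes 5 were lower and 0 higher (median -0.24). Of 12 cholesterol synthesis genes 4 were lower and 0 higher (median -0.33), among them Sqle (squalene epoxidase) at 31.0 and 12.3 CPM and Hmgcs1 at 61.4 and 33.0 CPM. In non-cycling regulatory T cells the log2 ratios of Sqle and Hmgcs1 were -0.09 (-0.90 to 0.72) and -0.14 (-0.55 to 0.28).

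Suppressive and resting genes showed single differences. Il10 was at 42.8 and 26.2 CPM (-0.71, -1.07 to -0.35), and its log2 ratio was -0.91 in non-cycling regulatory T cells and -1.10 in cycling CD8 T cells. Of 17 suppressive effectors 0 were higher and 3 lower: Il10, Tgfbi and Gzma. The direction turned for Tgfbi with CD8 UMIs at 0 (log2 ratio 3.23), and for Gzma with high Scrublet scores left out (0.64), after thinning to 8000 UMIs (1.23) and with only Y-linked cells (2.86). Gzma, at 125 and 54.3 CPM, had 322 of 565 UMIs labelled WT in 1 cell. Of 11 resting genes S1pr1, an exit receptor, was higher at 20.2 and 35.7 CPM, and Foxp1, a factor of quiescence, lower at 37.7 and 17.8 CPM. Il1rl1 (the interleukin 33 receptor), Klrg1, Gzmb and Tigit had intervals that reached or held 0. Lists of TNF receptors and of S100 and annexin genes had 0 of 11 and 0 of 13 higher and 0 and 1 lower, with medians of 0.31 and 0.34. Antigen receptor response genes were higher for 2 of 20, Nr4a3 and Nfatc1, inhibitory receptors lower for 1 of 11, and glycolysis genes lower for 1 of 18, Eno1.

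**Figure D5:**
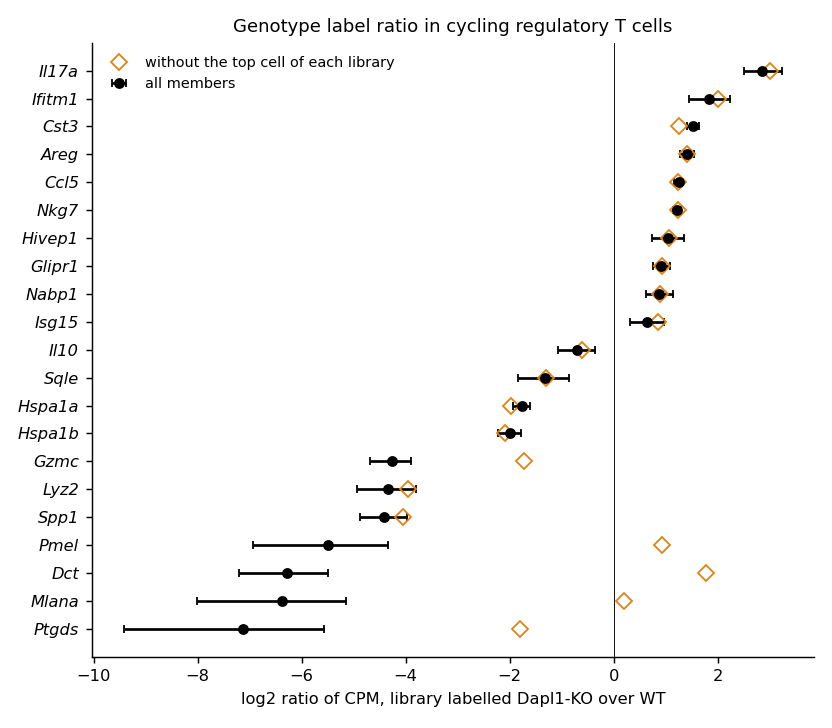
Log2 ratio of CPM in members labelled Dapl1-KO over members labelled WT (x axis) for 21 named genes (y axis), with exact 95% intervals for counting error (filled points) and the value without the cell holding most UMIs of that gene in each library (open diamonds). Areg, Ccl5 and Nkg7 keep their values, while Dct, Mlana and Pmel cross 0.

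Across the called genes, leaving out the cell with most UMIs of each gene in each library put 9 of the 106 higher and 43 of the 183 lower genes within the 1.5-fold limit. Non-cycling regulatory T cells are separate cells of the same libraries. There, 77 of 90 higher genes that could be measured had a ratio in the same direction, 25 of them past the limit, and 102 of 117 lower genes did, 41 past the limit. The non-cycling cells share library, animals and sex with the members, so this count is no independent check of the label. Matching shares over all genes measured in those cells are not given here, so these counts cannot be set against a background.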

How the data were processed

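The deposited values were whole UMI counts for each gene in each barcode, with no normalization by the authors, for 32285 genes in 2 libraries. Alignment and counting used Cell Ranger 5.0.0 with the builds mm10 and GRCm38, per the submitters' processing notes; other settings are not given in the sources used here. The barcode and gene name tables that the authors deposited were used as labels for cells and genes. The smallest barcode total was 500 UMIs in each library.

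Groups were taken from the genotype labels. Of barcodes in both libraries, a copy with at least 2 times the UMIs of the other was kept. Cells needed 500 or more genes and at most 10% mitochondrial UMIs, and no doublets were removed in the reported values; leaving out cells with high Scrublet scores (scanpy 1.11.5) was an alternative. The members, the gates, the 25 gene lists and the rule for named genes were chosen with earlier results of these data known. Counts were summed per library and gate and divided by the gate total to give CPM. Log2 ratios have exact conditional binomial intervals, shares exact Clopper-Pearson intervals and differences of shares Newcombe intervals (scipy 1.17.1), all at 95%, and a floor of 3 counts stood in for a count of 0. Counting error is all that these intervals cover, and the spread between animals is unknown.

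Genes were called at 1.5-fold among those at 20 CPM or more in either side. Named genes were, per comparison, the 12 highest and 12 lowest ratios at 50 CPM or more, up to 4 members of each list with the largest ratios, and a set of regulatory T, checkpoint and cycle genes. Antigen receptor, immunoglobulin, haemoglobin, sex-linked, mitochondrial, ribosomal and unnamed genes were left out of the ranking, and any further gene named in the text is a list member chosen with its values in view. With 1 library per label no p-value was computed. The ratio and call steps were tested on simulated counts. Gene positions come from the GENCODE annotation of GRCm38 and promoters from RefSeq (GRCm38.p6).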

Additional observations from a re-analysis of the deposited data

Results flagged for a closer look

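Some genes differed in direction between the libraries under the same contrast, each with a ratio past the limit in both, and these differences were not tested. Only those that the rule for named genes took in are given with values. For cycling over non-cycling regulatory T cells this was, of 7 such genes, Lyz2, a lysozyme gene of macrophages, with log2 ratios of 2.35 (WT) and -1.62 (Dapl1-KO). For cycling regulatory over cycling CD8 T cells, where 19 genes differed so, it was Lyz2 again, with 2.87 and -2.28, and Lgals3 (galectin 3), with 0.63 and -1.60. The melanocytic genes Dct (1.75 and -5.41), Mlana (3.46 and -4.84), Pmel (2.48 and -4.78) and Tyrp1 (2.45 and -4.70) did the same. In the members labelled WT, 1 cell held 99.3% of the UMIs of the melanocytic list.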

How the results depend on the processing

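With 1 library per label, differences between animals, between labels and between sexes cannot be told apart, and few UMIs per member limit genes below 20 CPM. No paired analysis was possible because each label has 1 library and no test was run. Leaving out every shared barcode left 0 members labelled WT, and thinning to 3000 UMIs before the gate left 7 and 10, so neither gave gene values; cells with only Y-linked UMIs gave none for cycling against non-cycling cells.

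In the order higher and lower in cycling than in non-cycling cells, higher and lower in Dapl1-KO than in WT, and higher and lower than in cycling CD8 T cells, the counts were 776, 590, 106, 183, 330 and 188. At 50 CPM they were 453, 319, 46, 58, 183 and 89, at 5 CPM 1252, 1016, 373, 870, 589 and 398, at the lower fold limit 1205, 1194, 553, 675, 665 and 343, and at 2-fold 377, 129, 18, 70, 147 and 101. On the scale of UMIs per cell the first pair was 4610 and 1. Thinning to 8000 UMIs before the gate gave 138 lower genes in cycling cells, and 818 higher and 885 lower for the labels; cells of at least 8000 UMIs gave 337 lower in cycling cells. With CD8 UMIs at 0, the label counts were 181 and 312, and with only Y-linked cells (9 members labelled WT) 1193 and 745. Those cells gave share differences of 0.735 points of kept cells and -11.1 points of regulatory T cells, and the latter was 5.29 without shared barcodes.

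Over all alternatives, 982 of 984 values of 82 named called genes kept their direction for cycling cells, 704 of 743 of 58 genes for the labels and 969 of 971 of 81 genes against CD8 T cells. These genes were named partly for large ratios in the same data. A value that fell within the 1.5-fold limit still counts as kept, so the tally covers direction alone. Reversed log2 ratios for cycling cells were 0.19 for Fos and 0.79 for Ifng after thinning, and against CD8 T cells 0.28 for Slc2a3 after thinning and -0.22 for Mxd1 with Y-linked cells. For the labels, Y-linked cells reversed Ccl4 (4.29), Ccne1 (0.51), Dnajb1 (0.20), Foxp1 (0.36), Gzma (2.86), Gzmc (0.50), Hmgcs1 (0.25), Hspa1a (3.81), Hspa1b (4.01), Ifitm3 (2.35), Lgals3 (3.65), Lilrb4a (0.01), Tnf (0.41) and Tyrobp (1.68). Thinning to 8000 reversed Ccl4 (2.39), Ccne1 (0.55), Gzma (1.23), Ifitm3 (1.96), Lgals3 (0.36), Lilrb4a (0.23) and Tyrobp (0.04). Leaving out mixed cells reversed Ccl4 (1.92), Cryab (0.20), Dct (1.78), Mlana (0.93), Pmel (1.20), Tnf (0.44) and Tyrp1 (3.0), and leaving out the cell with most UMIs Dct (1.77), Mlana (0.20), Pmel (0.93) and Tyrp1 (2.77). Leaving out high Scrublet scores reversed Gzma (0.64) and Gzmc (0.59), CD8 UMIs at 0 Ccl4 (0.12) and Tgfbi (3.23), Foxp3 at 2 UMIs Ccl4 (0.43), and the mean over cells Ccl4 (0.04) and Lilrb4a (0.06). Leaving out mixed or top cells and using only deep cells were chosen after seeing the data. The cause of these changes was not tested.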
